A study of Homo sapiens with 39 samples.

Results

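Monosomes, single ribosomes on an mRNA, were compared with the fractions holding 2 and 3 ribosomes in gradients of human bronchial epithelial cells (HBEC), a cultured airway line. The 9 libraries were chosen by their labelled fraction, 3 of monosomes and 6 of the 2 and 3 ribosome fractions, out of 24 gradient libraries and 39 samples in the series. Each fraction was sequenced once in each of 3 lines, which are labelled by their U2AF1 genotype as S34F, Frame Shift (FS) and WT. U2AF1 is the small subunit of the factor that recognises the 3′ splice site, and the series asks about a role of this protein in translation. All lines grew in keratinocyte serum-free medium with bovine pituitary extract and EGF, and the labels name no treatment. Neither the allele with the frame shift, nor whether a line is 1 clone, nor any repeat of a gradient is given. The 3 lines are therefore the only replication. Line is a block in the fit, which takes out differences in level between genotypes. Genotype differences that vary with the fraction stay in the residual spread. The p-values reflect no other spread than that among these libraries, part of which may be technical.

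An mRNA moves further down a gradient as it carries more ribosomes, and a short coding sequence has room for only a few. Monosome fractions of cultured cells are known to hold mRNAs with a single ribosome, mRNAs that are poorly initiated, and large ribonucleoprotein particles that sediment at a similar rate without being translated. Levels are given here as counts scaled to a common library total (CPM) after TMM scaling. The amount of RNA in a fraction is thus lost, and a higher CPM means a larger share of that fraction's RNA, not more molecules. Less of an mRNA in a fraction and more of all other RNAs there cannot be told apart. Differences are given as monosomes minus the mean of the 2 and 3 ribosome fractions on the log2 scale, ± SE, unless another pair is named.

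The 9 libraries held 2440145 to 11911494 counts, and the WT 2 ribosome library was the shallowest of them. All gradient libraries carry the same sequencing lane number in their names. U2AF1 itself stood at 14.2, 12.8 and 23.8 CPM in monosomes of the S34F, FS and WT lines, against 18.2, 22.3 and 24.2 CPM with 2 ribosomes and 33.5, 83.7 and 47.5 CPM with 3 ribosomes. Its log2 difference was -0.97 ± 0.38 (adjusted p = 0.179), and a near-identical gene copy makes its counts uncertain. Of 19 airway basal cell markers, 19 reached 5 CPM in at least 1 of the 9 libraries, with summed levels, unscaled, of 13047 to 19433 CPM in monosomes and 13031 to 20174 CPM in the 2 and 3 ribosome libraries. Of the secretory and ciliated, fibroblast and endothelial, and immune cell markers, 10 of 14, 9 of 12 and 7 of 10 stayed under 5 CPM in all 9.

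Neighbouring fractions did not follow each other evenly. Over 5513 well-counted genes centred on their mean, the monosome library of each line correlated with its own 2 ribosome library (r = 0.61 in S34F, 0.672 in FS and 0.63 in WT) and with its 4 ribosome library (0.484, 0.394 and 0.573). With the 3 ribosome library it correlated only at 0.1, 0.0635 and 0.0493 in those lines. The 3 ribosome library was closer to the 5 ribosome library, at 0.612, 0.43 and 0.635. These are correlations across genes, which are not independent replicates, and the libraries of a line share its culture. The same alternation appeared in all 3 lines, and its cause was not tested. It bears on every value below, since the 2 and 3 ribosome fractions are averaged as 1 group.

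Across 15945 tested genes, 28 were higher in monosomes than in the mean of the 2 and 3 ribosome fractions (0.176%) and 472 were lower (2.96%), of which 22 and 441 differed at least 2-fold. The genes that rose included RMRP and RPPH1, the RNA components of RNase MRP and RNase P, and long mRNAs such as IDS, IPO7 and E2F3. Those that fell were of separate kinds, many short mRNAs such as FBL and RPL11 and a smaller set of very long ones such as ABCA2 and UHMK1. Calls used edgeR's quasi-likelihood test with line as a block at a Benjamini-Hochberg adjusted p under 0.05, and 709 and 2068 genes were higher and lower at an unadjusted p under 0.05. Each monosome library was also paired with the 2 and the 3 ribosome library of its line, giving 6 pairs. Of the 28 higher genes 26 were higher in every pair, and of the 472 lower genes 208 were lower in every pair. The pairs use the libraries that made the calls, so this agreement is no further support. Groups did not overlap for 13 of the higher and 124 of the lower genes, while over all tested genes 189 (1.19%) stood entirely above and 322 (2.02%) entirely below.

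The 2 fractions contributed unequally to the lower calls. The median log2 difference of the 472 lower genes was -0.77 against 2 ribosomes and -2.20 against 3 ribosomes, while that of the 28 higher genes was 0.91 and 1.37. Within lines, the lower genes had medians of -1.22 in S34F, -0.64 in FS and 0.15 in WT against 2 ribosomes, and 470, 448 and 213 of them were lower there. Against 3 ribosomes the medians were -2.21, -2.25 and -2.13. The WT 2 ribosome library was thus the one where most lower genes went the other way. Without it 42 genes were called higher and 806 lower, and all 472 were among those 806.

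**Figure D1:**
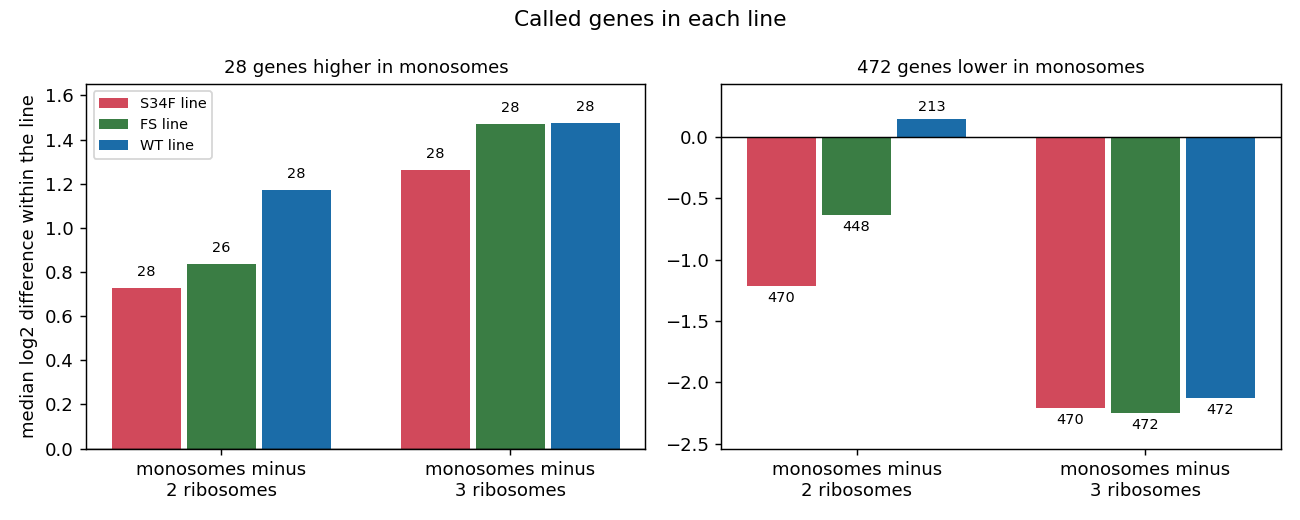
Median log2 difference between monosomes and the 2 or 3 ribosome library of the same line, for the 28 genes called higher (left) and the 472 called lower (right), with bars for the S34F, FS and WT lines and the number of genes in the called direction at each bar. The 28 higher genes had positive medians in every line, and the lower genes had negative medians except against the WT 2 ribosome library.

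The size of the called sets rested on single libraries and lines. Without the FS line edgeR called 0 genes in either direction, with 215 higher and 1146 lower at an unadjusted p under 0.05, and DESeq2 was not run without it. Without S34F 18 genes were higher and 281 lower, and without WT 3 and 310. Leaving out 1 monosome library gave 8 higher and 41 lower genes for S34F, 2 and 41 for FS and 8 and 320 for WT. Leaving out 1 library of the lighter polysomes gave 10 and 240 (S34F, 2 ribosomes), 14 and 314 (FS, 2), 25 and 526 (S34F, 3), 11 and 296 (FS, 3) and 6 and 230 (WT, 3). These sets include genes not called with all libraries, and without the S34F 3 ribosome library 16 of the 25 and 429 of the 526 were among the 28 and 472. Scaling by total counts gave 119 higher and 394 lower genes, so that 76.8% of calls were lower instead of 94.4%, and moved the median of all genes by 0.22 log2.

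RMRP and RPPH1 were the most abundant of the RNAs that rose. RMRP, the RNA of the RNase MRP particle that processes ribosomal RNA precursors, had 18959, 21211 and 26869 CPM in monosomes of the S34F, FS and WT lines, against 10168, 11492 and 11290 CPM with 2 ribosomes and 4142, 3001 and 6265 CPM with 3 ribosomes. Every line showed the same order, with monosomes highest and 3 ribosomes lowest, and the groups did not overlap. Its log2 difference was 1.73 ± 0.45 (adjusted p = 0.0332). Without the FS monosome library it was 1.07 (adjusted p = 0.487), and without 1 of 4 further libraries its adjusted p was 0.0622 to 0.0916. RPPH1, the catalytic RNA of RNase P that trims the 5′ end of tRNA precursors, had 8723, 4814 and 9960 CPM in monosomes, against 4589, 2593 and 4474 CPM with 2 and 1511, 886 and 2363 CPM with 3 ribosomes in the same line order. Its groups also stood apart, and its difference was 1.65 ± 0.36 (adjusted p = 0.0109). Without any 1 library RPPH1 was at 1.43 to 1.95, with an adjusted p of 0.127 without the FS and 0.0622 without the WT monosome library. Neither RNA is translated. These were the 2 called among 13 tested small structured RNAs, a list whose median was 0.31 against 0.01 over all genes, and 11 others of the list did not pass.

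Of the 28 higher genes 25 were protein coding, 23 of them with transcripts of at least 3 kb. KHSRP, an RNA-binding protein that promotes decay of AU-rich mRNAs, had 306, 483 and 648 CPM in monosomes, against 281, 239 and 208 CPM with 2 and 223, 182 and 258 CPM with 3 ribosomes for S34F, FS and WT. Its monosome values lay above all others, although the S34F gap was small, and the difference was 1.03 ± 0.24 (adjusted p = 0.0179). E2F3, a transcription factor that drives S-phase genes, had 25.4, 37.2 and 28.7 CPM in monosomes, against 15.6, 21.3 and 11.1 CPM with 2 and 12.4, 19.6 and 11.4 CPM with 3 ribosomes. Each line was highest in monosomes and the groups did not overlap, with a difference of 1.02 ± 0.25 (adjusted p = 0.0229). PEAR1, a transmembrane receptor with EGF-like repeats, had 3282, 2553 and 3972 CPM in monosomes, against 1756, 2365 and 1609 CPM with 2 and 1309, 1415 and 1698 CPM with 3 ribosomes. Its groups stood apart as well, at 0.98 ± 0.26 (adjusted p = 0.0411), although the FS 2 ribosome value came close to the FS monosome value.

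Other rises were seen in each line but overlapped between lines because the lines differed in level. IDS, a lysosomal enzyme that degrades heparan and dermatan sulfate, had 622, 1441 and 1236 CPM in monosomes, against 391, 973 and 651 CPM with 2 and 252, 332 and 414 CPM with 3 ribosomes. The S34F line was lowest throughout, and the difference was 1.20 ± 0.24 (adjusted p = 0.00878). IPO7, a nuclear import receptor, had 267, 1213 and 286 CPM in monosomes, against 199, 624 and 130 CPM with 2 and 146, 368 and 114 CPM with 3 ribosomes. Its FS values were far above those of both other lines in every fraction, and the difference was 1.11 ± 0.30 (adjusted p = 0.0441). EREG, an EGF-family ligand and the 1 called gene among 26 tested cytokines and growth factors, had 193, 1154 and 848 CPM in monosomes, against 168, 597 and 482 CPM with 2 and 113, 327 and 409 CPM with 3 ribosomes. S34F was again lowest, and EREG's 2 ribosome value in S34F was near its monosome value, with a difference of 0.97 ± 0.27 (adjusted p = 0.0458).

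EPHB4, a receptor tyrosine kinase for ephrin-B2, had 590, 755 and 2168 CPM in monosomes, against 515, 410 and 502 CPM with 2 and 390, 270 and 816 CPM with 3 ribosomes. Most of its difference of 1.18 ± 0.30 (adjusted p = 0.0316) came from the WT and FS lines. The transcription factor gene MECOM, the GABA receptor subunit gene GABRA2, the pseudogene ADCY10P1, the tyrosine ligase gene TTL, the trafficking factor gene TRAPPC9, LENG8 and TSPYL4 completed the 15 largest rises among genes with at least 20 CPM on average, with log2 differences of 1.00 to 1.89. GABRA2 rose by 1.89 ± 0.52 (adjusted p = 0.0458) and TSPYL4 by 1.00 ± 0.25 (adjusted p = 0.0277), the ends of that range. LENG8 lost its call when any 1 of the 9 libraries was left out, and was at 0.55 (adjusted p = 0.357) without the WT monosome library. Over the whole gradient 25 of the 28 higher genes peaked in monosomes, 1 with 7 ribosomes and 2 with 8 to 10. Of 14538 tested protein coding genes 2649 peaked in monosomes. EREG had a mean of 731 CPM in monosomes and 858 CPM with 8 to 10 ribosomes. The median log2 level of the 28 genes relative to monosomes was -0.89 with 2 ribosomes, -1.29 with 3 and -1.36 with 8 to 10. The 28 were called for high monosome values, which favours such a course, so it is no further support.

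**Figure D2:**
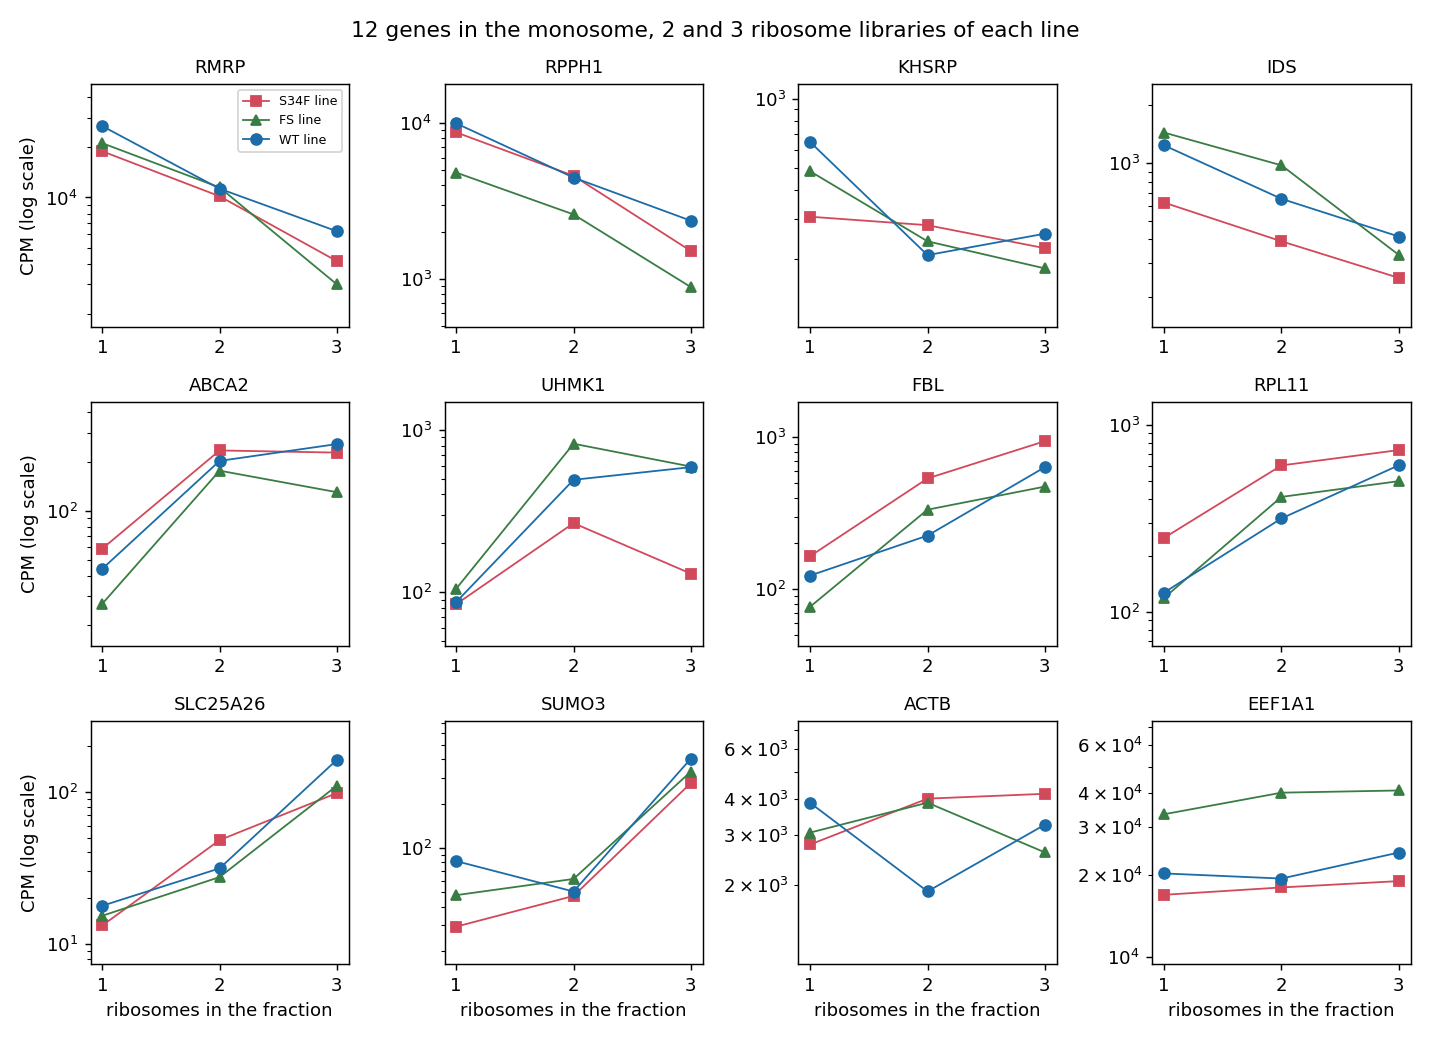
Level of 12 genes, in CPM on a log scale, in the monosome (1), 2 and 3 ribosome libraries, with 1 point per library joined within the S34F, FS and WT lines. RMRP and RPPH1 were highest in monosomes in all 3 lines. ABCA2 and UHMK1 were lowest there, ABCA2 with similar levels at 2 and 3 ribosomes and UHMK1 with 266 and 130 CPM in S34F. SUMO3 was high only at 3 ribosomes, and ACTB and EEF1A1 did not pass the test.

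Among protein coding genes the calls followed transcript length, taken from the authors' length column. Of 682 tested genes under 1 kb 104 were lower in monosomes (15.2%), of 967 of 1 to 1.5 kb 98 (10.1%), and of 1375 of 1.5 to 2 kb 77 (5.6%). The share was 0.406% (13 of 3201) at 4 to 6 kb, where 16 genes were higher, and 2.07% (52 of 2516) over 6 kb. The median log2 difference was -0.75 under 1 kb, -0.15 at 2 to 3 kb, 0.28 at 4 to 6 kb and 0.10 over 6 kb. In each line the shortest bin was below 0, at -0.95 in S34F, -0.70 in FS and -0.44 in WT. Across 14537 genes the Spearman correlation of length with the difference was 0.39, a description over genes that share libraries.

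The slope came mainly from the 3 ribosome fraction. The Spearman correlation with length was 0.15 for monosomes against 2 ribosomes and 0.46 against 3 ribosomes, and the median of the shortest bin was -0.28 and -1.19. Among genes of at least 20 CPM on average the correlations were 0.06 and 0.52. Genes under 2 CPM, 2401 in number, had a median of 0.68 and 1 call in each direction. Their medians were 0.56 in S34F, 1.16 in FS and 0.02 in WT. Low counts thus moved the other way from short length in S34F and FS and hardly moved in WT.

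**Figure D3:**
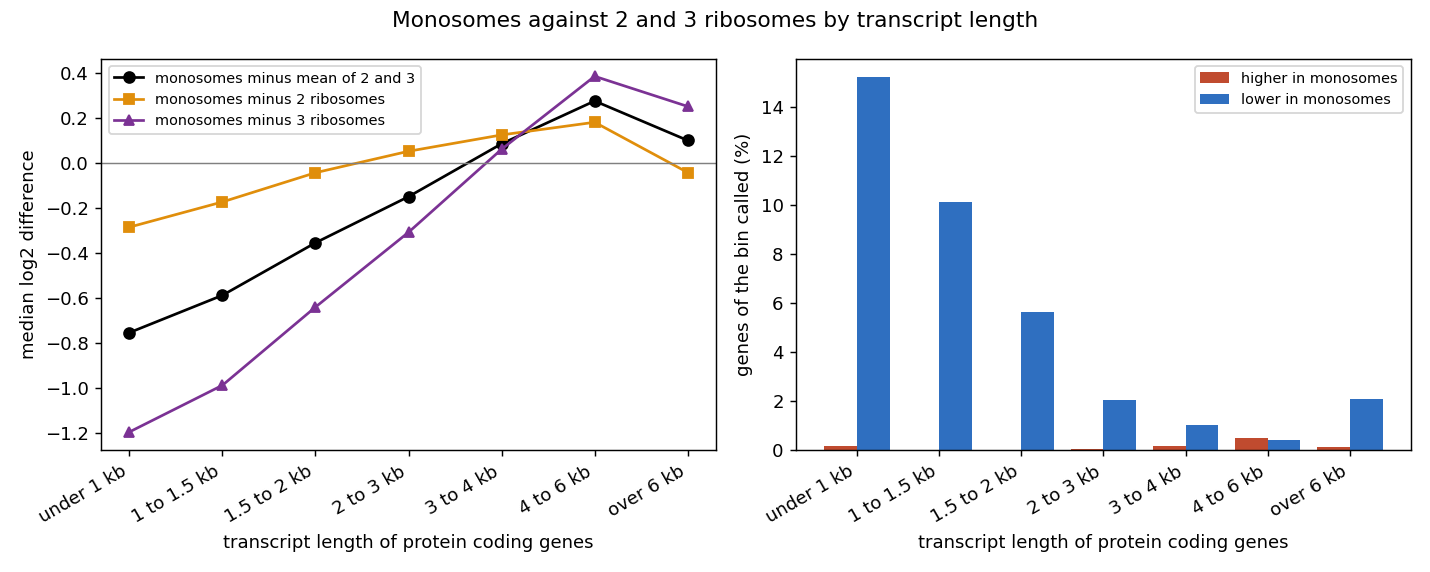
Median log2 difference (left) and percentage of genes called (right) in 7 bins of transcript length of protein coding genes. The median against 3 ribosomes runs from -1.19 under 1 kb to 0.39 at 4 to 6 kb, that against 2 ribosomes stays between -0.28 and 0.18, and the share called lower is largest under 1 kb and has a second, smaller rise over 6 kb.

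The 279 lower protein coding genes under 2 kb differed less between monosomes and 2 ribosomes than between monosomes and 3. Their median level relative to monosomes was 0.69 log2 with 2 ribosomes, 2.31 with 3, 0.77 with 4, 2.32 with 5, 1.75 with 7 and 0.23 with 8 to 10. The 104 lower genes of 2 to 6 kb had a similar course, at 0.46, 2.04, 0.93, 1.94, 1.45 and 0.26 in those fractions. SLC25A26, the mitochondrial carrier of S-adenosylmethionine, had 13.2, 15.3 and 17.8 CPM in monosomes, against 48.2, 27.5 and 31.4 CPM with 2 and 98.4, 110 and 163 CPM with 3 ribosomes for S34F, FS and WT. Monosomes were lowest in each line, 3 ribosomes highest, and the groups did not overlap (-2.07 ± 0.34 (adjusted p = 0.00242)). DNAJC19, a co-chaperone of mitochondrial protein import, had 7.01, 16.3 and 17.9 CPM in monosomes, against 81.9, 20.4 and 18.3 CPM with 2 and 94.9, 119 and 161 CPM with 3 ribosomes. Its FS and WT 2 ribosome values were close to monosomes and its difference was -2.21 ± 0.43 (adjusted p = 0.00631).

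CCDC85B, a small coiled-coil protein that binds transcription factors, had 61.5, 37.2 and 38.9 CPM in monosomes, against 113, 95 and 103 CPM with 2 and 288, 316 and 365 CPM with 3 ribosomes. Each step was upward in every line, with a difference of -2.08 ± 0.39 (adjusted p = 0.00573). FBL, the methyltransferase of box C/D small nucleolar ribonucleoproteins, had 165, 76.8 and 123 CPM in monosomes, against 534, 333 and 225 CPM with 2 and 938, 472 and 633 CPM with 3 ribosomes. It was lowest in monosomes in every line, with no overlap, at -2.04 ± 0.31 (adjusted p = 0.00185). SUMO3, a ubiquitin-like modifier, had 29.3, 47.9 and 81.5 CPM in monosomes, against 47.3, 61.7 and 50.7 CPM with 2 and 276, 330 and 404 CPM with 3 ribosomes. Here monosomes and 2 ribosomes overlapped and only 3 ribosomes stood apart, and the difference of -1.42 ± 0.27 (adjusted p = 0.00631) came from that fraction.

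POLD2, a subunit of DNA polymerase delta, showed the same with 90, 70.4 and 272 CPM in monosomes, against 162, 98.3 and 123 CPM with 2 and 1573, 717 and 1528 CPM with 3 ribosomes. Its log2 difference between monosomes and 2 ribosomes was -0.02, and between 3 and 2 ribosomes it was 3.23 (adjusted p = 2.63e-05). BCL7C, TOP1MT, C9orf142, ARL6IP4 and SNRNP25, with transcripts of 812 to 2194 bases, were further members of the 15 largest falls, at -2.02 to -2.28. TOP1MT, the mitochondrial topoisomerase I, had 6.66, 6.89 and 6.4 CPM in monosomes, against 34.3, 22.4 and 15 CPM with 2 and 53.8, 36.6 and 38.8 CPM with 3 ribosomes. ATP5L, a subunit of the mitochondrial ATP synthase, was listed at 0 in all 3 monosome libraries, against 78.5, 46.8 and 36 CPM with 2 ribosomes and 110, 81.7 and 129 CPM with 3. A floor of 3 counts per library is 0.765 CPM in the shallowest monosome library. Set against it, ATP5L was at least 105-fold below the mean of the 2 and 3 ribosome libraries and 47-fold below the lowest of them. ATP5L was also listed at 0 in all 3 libraries of 8 to 10 ribosomes. With 6 ribosomes it was at 0 in FS and WT but at 258 CPM in S34F. Isolated zeros are held by 117 genes of the table, so the 0 may be a failed estimate.

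The 52 lower genes over 6 kb followed another course. Relative to monosomes their median level was 1.25 log2 with 2 ribosomes, 1.37 with 3, 1.22 with 4, 1.60 with 5, 1.43 with 7 and 1.12 with 8 to 10. Of these, 49 were lower in all 6 pairs, against 100 of the 279 short ones. The median difference between 3 and 2 ribosomes was -0.01 for the long and 1.78 for the short lower genes.

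ABCA2, a lipid transporter of late endosomes and lysosomes, had 58.7, 27 and 44.2 CPM in monosomes of the S34F, FS and WT lines, against 234, 176 and 202 CPM with 2 ribosomes and 227, 130 and 256 CPM with 3 ribosomes. All 3 monosome values lay far below the other 6, and both fractions were similar. Its difference of -2.27 ± 0.30 (adjusted p = 0.000817) carried the smallest adjusted p of all tested genes. UHMK1, a kinase that phosphorylates splicing factor 1, had 84.3, 105 and 86.9 CPM in monosomes, against 266, 821 and 492 CPM with 2 and 130, 594 and 589 CPM with 3 ribosomes. The monosome values agreed between lines while the others varied, at -2.22 ± 0.42 (adjusted p = 0.00597). AGRN, the basement membrane proteoglycan agrin, had 603, 320 and 639 CPM in monosomes, against 829, 920 and 3308 CPM with 2 and 667, 566 and 2331 CPM with 3 ribosomes, and FASN, the fatty acid synthase, had 492, 269 and 171 CPM in monosomes, against 1051, 715 and 345 CPM with 2 and 973, 577 and 520 CPM with 3 ribosomes. Both were lowest in monosomes in each line but overlapped between lines, at -1.22 ± 0.32 (adjusted p = 0.0367) for AGRN and -1.22 ± 0.29 (adjusted p = 0.0205) for FASN.

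Against the 2 ribosome fraction alone, 8 genes were lower in monosomes (0.0502%) and 0 higher, with 600 lower and 171 higher at an unadjusted p under 0.05. Counts under DESeq2 were 128 lower and 3 higher. Of the 8 genes 7 had transcripts over 6 kb: ABCA2, ATXN1L, KDM6B, SSH1, CMTM4, SLC7A1 and UHMK1, with TMED8 as the short one. The TMED8 call rests on low counts, at 1.75, 1.28 and 2.65 CPM in monosomes of S34F, FS and WT. In the FS monosome library 3 counts are 0.765 CPM. All 8 genes were named after their values were seen. ATXN1L, a relative of ataxin-1 that binds the repressor CIC, had 21.7, 23.2 and 23.9 CPM in monosomes, against 89.5, 146 and 80.8 CPM with 2 and 54.9, 87.9 and 88.2 CPM with 3 ribosomes, at -2.18 ± 0.32 (adjusted p = 0.00375) against 2 ribosomes. KDM6B, a histone H3 lysine demethylase, had 53.1, 25 and 39.4 CPM in monosomes, against 163, 171 and 170 CPM with 2 and 110, 78.8 and 139 CPM with 3 ribosomes, at -2.16 ± 0.33 (adjusted p = 0.00481). SLC7A1, a cationic amino acid transporter, had 165, 89.5 and 205 CPM in monosomes, against 429, 347 and 538 CPM with 2 and 214, 159 and 495 CPM with 3 ribosomes, at -1.57 ± 0.30 (adjusted p = 0.0409). In all 3 genes every 2 ribosome value lay above every monosome value. The count of lower genes was 0 without the WT or 1 without the FS monosome library, 4 without the S34F and 3 without the FS 2 ribosome library, 3 without the FS 3 ribosome library, and 33 without the WT 2 ribosome library.

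**Figure D4:**
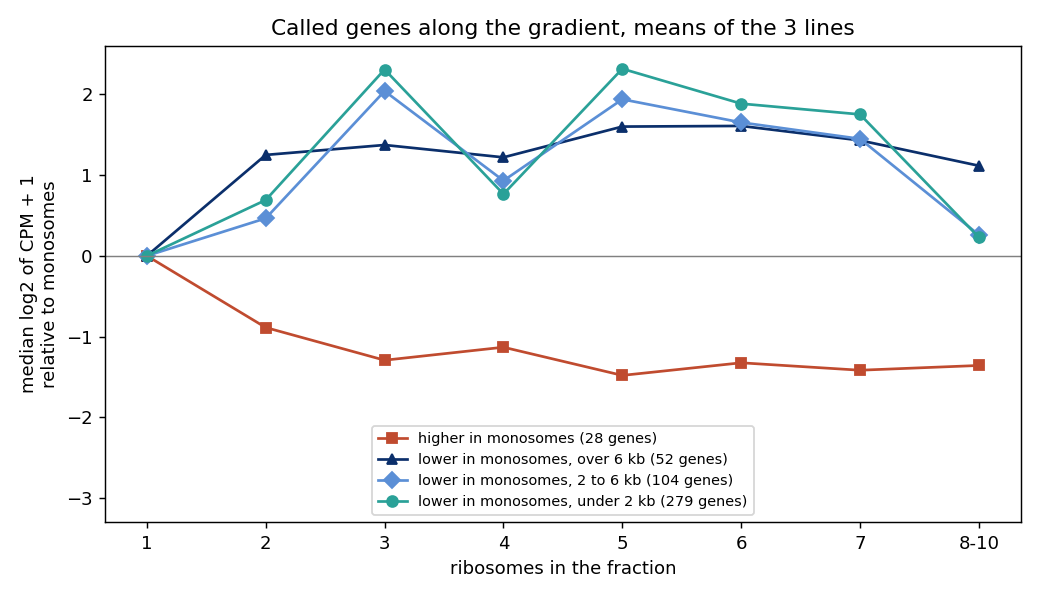
Median log2 of CPM + 1 relative to monosomes along the 8 fractions, from means of the 3 lines, for the 28 higher genes and for the lower protein coding genes split at 2 and 6 kb of transcript length. The short lower genes are high at 3 and 5 ribosomes and dip at 2, 4 and 8 to 10, while the 52 long ones stay between 1.12 and 1.61 from 2 ribosomes on.

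Between the lighter polysomes themselves, 1537 genes were higher with 3 than with 2 ribosomes (9.64%) and 31 lower (0.194%). The Spearman correlation with transcript length was -0.48, and 27.3% of genes under 1 kb were higher against 0.596% over 6 kb. The median difference was 1.36 for 51 short-ORF genes, 0.62 for ribosomal protein genes of either subunit and -0.07 for 35 long cytoskeletal linker genes. The count of higher genes was 633 without the WT 2 ribosome library, 939 without the WT and 1009 without the FS 3 ribosome library. That of lower genes was 10, 9 and 19 in those fits, and 18 without the S34F 2, 17 without the S34F 3 and 12 without the FS 2 ribosome library. Monosomes against 3 ribosomes gave 162 higher (1.02%) and 2049 lower genes (12.9%). These comparisons share libraries with the main one and are no independent support for it.

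Of 46 tested large subunit ribosomal protein genes 5 were lower (10.9%) and 0 higher, with a median of -0.77, and of 32 small subunit genes 5 were lower (15.6%) and 0 higher, with a median of -0.87. Over all genes 2.96% were lower and the median was 0.01, and over coding genes under 1 kb the values were 15.2% and -0.75. Ribosomal protein genes are well counted, with median levels of 1227 and 1440 CPM in the 2 lists. Over the 321 coding genes under 1 kb with at least 20 CPM the values were 25.2% and -0.93, which neither list exceeded. The differences were below 0 for 41 of the 46 and all 32 genes. The large subunit list was negative in each line, at -0.93 in S34F, -0.83 in FS and -0.42 in WT. RPL11, which also restrains MDM2, had 249, 119 and 127 CPM in monosomes, against 607, 412 and 316 CPM with 2 and 733, 500 and 608 CPM with 3 ribosomes. Its monosome values were the lowest of each line and did not overlap the others (-1.73 ± 0.30 (adjusted p = 0.00431)). RPL3, near the peptidyl transferase centre, had 4068, 1741 and 1761 CPM in monosomes, against 7748, 7225 and 4905 CPM with 2 and 7782, 5866 and 6684 CPM with 3 ribosomes (-1.51 ± 0.33 (adjusted p = 0.0109)). RPL41, the shortest ribosomal protein, had 1303, 813 and 1607 CPM in monosomes, against 10046, 1311 and 1061 CPM with 2 and 10748, 4922 and 12656 CPM with 3 ribosomes. Its WT value was lower with 2 ribosomes than in monosomes, and the difference was -2.13 ± 0.43 (adjusted p = 0.00878).

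In the small subunit, RPS6, the target of S6 kinase, had 1445, 1001 and 1297 CPM in monosomes, against 3196, 2609 and 1552 CPM with 2 and 3338, 3238 and 3022 CPM with 3 ribosomes. Monosomes were lowest throughout, at -1.17 ± 0.31 (adjusted p = 0.0392). RPS23 and RPS27 were called at -1.39 and -1.52. Ribosomal protein genes have many processed pseudogenes, among which counts may have been split.

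Ribosomal protein and translation factor mRNAs often begin with a terminal oligopyrimidine (TOP) tract, a C at the start followed by pyrimidines, through which mTOR controls their translation. RefSeq start windows (GRCh38.p14) of 30 bases hold 10 before the annotated start and 20 from it. They are shown for called genes with and without such a tract at that start. Annotated starts can miss the used one, so the windows of RPL11 and ABCA2 do not show that these mRNAs lack a tract. Capitals mark the pyrimidine run from the start:
FBL: cgcctgcgctCTTTTCCacgtgcgaaagcc
EIF3D: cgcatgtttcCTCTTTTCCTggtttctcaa
RPS6: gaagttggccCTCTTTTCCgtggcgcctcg
RPL11: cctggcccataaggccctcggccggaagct
ABCA2: ccacagccgcagaaccgcctgatcccgaac
The windows lie at chr19:39846360-39846389 (FBL, minus strand), chr22:36529147-36529176 (EIF3D, minus), chr9:19380217-19380246 (RPS6, minus), chr1:23691769-23691798 (RPL11, plus) and chr9:137028903-137028932 (ABCA2, minus).

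A C followed by at least 4 pyrimidines at the RefSeq start was found in 4.04% of 27305 promoters, in 608 of 11782 matched tested coding genes (5.16%) and in 42 of 62 matched ribosomal protein genes. Annotated starts can miss the used one, so the absence of a match says only that these letters are not there. Ribosomal protein genes with the tract had a median log2 difference of -0.79 and those without it -0.88. Outside this family, the 30 genes under 1 kb with a tract had a median of -0.76 and the 502 without one -0.75. Of these, 1 with a tract (3.33%) and 80 without one (15.9%) were called lower. For 1 to 1.5 kb the medians were -0.58 (56 genes) and -0.60 (738 genes), with 17.9% and 10% called lower. For 1.5 to 2 kb they were -0.49 (65 genes) and -0.36 (1022 genes), with 18.5% and 4.99% called lower, so that the order of the shares differed between length bins.

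Of 50 tested translation factor genes 5 were lower (10%, against 2.96% of all tested genes) and 0 higher, with a median of -0.31. The list had a median level of 119.4 CPM and a median transcript of 2657 bases. Of coding genes over 100 CPM 8.14% were lower. Of coding genes of 2 to 3 kb with at least 20 CPM 3.67% were lower, and the shares were not tested. EIF3D, a cap-binding subunit of initiation factor 3, had 94.2, 90.3 and 95.8 CPM in monosomes, against 266, 331 and 166 CPM with 2 and 232, 295 and 267 CPM with 3 ribosomes. Its 3 monosome values were nearly equal and all below the other 6 (-1.45 ± 0.26 (adjusted p = 0.00431)). EEF1B2 and EEF1D, subunits of the exchange factor for EEF1A, had differences of -1.28 and -1.45. EIF4A2, an RNA helicase, was called at -0.96 with overlapping groups. EEF1A1 itself, which brings aminoacyl-tRNA to the ribosome, had 16904, 33432 and 20253 CPM in monosomes, against 17989, 40120 and 19395 CPM with 2 and 18981, 40877 and 24173 CPM with 3 ribosomes, at -0.18 ± 0.29 (adjusted p = 0.772), and differed more between lines than between fractions.

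Short nuclear-encoded mitochondrial genes were lower in part. Of 76 respiratory chain genes 8 were lower (10.5%) and of 76 mitochondrial ribosomal protein genes 7 (9.21%), with medians of -0.60 and -0.59 and median transcripts of 926 and 1278 bases. The share was 2.96% over all tested genes, 15.2% over coding genes under 1 kb and 10.1% over those of 1 to 1.5 kb, so that neither list exceeded the genes of its length. MRPL47 had 4.91, 3.83 and 5.3 CPM in monosomes, against 10.3, 8.12 and 9.16 CPM with 2 and 12.2, 18.2 and 23.2 CPM with 3 ribosomes, lowest in monosomes in each line (-1.44 ± 0.29 (adjusted p = 0.00813)). NDUFA8, an accessory subunit of complex I, had 8.59, 6.89 and 11 CPM in monosomes, against 21.1, 14.8 and 15.4 CPM with 2 and 29.3, 43.9 and 72.9 CPM with 3 ribosomes. It was higher at each step in each line, at -1.72 ± 0.35 (adjusted p = 0.00939). MRPL11 had 36.8, 28.8 and 59.5 CPM in monosomes, against 149, 39.4 and 29.1 CPM with 2 and 353, 246 and 307 CPM with 3 ribosomes, with WT and FS 2 ribosome values near or below monosomes, at -1.71 ± 0.39 (adjusted p = 0.0139). Of 31 proteasome genes 1 was lower, PSMC5, an ATPase of the regulatory particle, at -1.41 ± 0.29 (adjusted p = 0.00939).

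Among 51 tested genes for small peptides and short ORFs 13 were lower (25.5%) and 0 higher, with a median of -0.92 and of -0.23 against 2 ribosomes. The share over all tested genes was 2.96%, and that over the 321 coding genes under 1 kb with at least 20 CPM was 25.2%, near that of the list. TIMM8B, a chaperone of the mitochondrial intermembrane space, had 5.61, 7.65 and 27.1 CPM in monosomes, against 127, 14.6 and 17.3 CPM with 2 and 166, 155 and 368 CPM with 3 ribosomes. Its 2 ribosome value was high in S34F and low in FS and WT, and the difference was -2.90 ± 0.54 (adjusted p = 0.00549). NEDD8, the modifier of cullins, had 36.1, 28.8 and 70.5 CPM in monosomes, against 210, 45.5 and 38.9 CPM with 2 and 384, 211 and 448 CPM with 3 ribosomes. It showed the same split between lines, at -1.93 ± 0.40 (adjusted p = 0.00939). TOMM5, a subunit of the outer membrane translocase, was called at -2.07 ± 0.43 (adjusted p = 0.00944).

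Of 14 polyamine pathway genes 3 were lower (21.4%), against 2.96% of all tested genes. The list had a median transcript of 1940 bases. Of coding genes of 1.5 to 2 kb with at least 20 CPM 10.5% were lower, and the shares were not tested. OAZ1, the antizyme whose translation needs a polyamine-sensitive frameshift, had 255, 193 and 341 CPM in monosomes, against 689, 280 and 291 CPM with 2 and 1643, 1192 and 1948 CPM with 3 ribosomes. The 3 ribosome values stood far above the others, at -1.57 ± 0.36 (adjusted p = 0.0146). SMS, spermine synthase, had 24.4, 27.5 and 21.3 CPM in monosomes, against 39.8, 58.9 and 47.1 CPM with 2 and 77.4, 162 and 82.7 CPM with 3 ribosomes and did not overlap between groups (-1.51 ± 0.30 (adjusted p = 0.0083)). SRM, spermidine synthase, was called at -1.45 ± 0.35 (adjusted p = 0.0221). Of 17 selenoprotein genes 2 were lower (11.8%) and 1 higher, against 2.96% and 0.176% of all tested genes. The share lower was near the 10.5% of coding genes of 1.5 to 2 kb with at least 20 CPM. SEPW1 was lower at -2.82 ± 0.54 (adjusted p = 0.00597) and GPX1, a glutathione peroxidase, at -1.34 ± 0.38 (adjusted p = 0.0493). SEPP1, a selenium carrier, was higher at 1.62 ± 0.42 (adjusted p = 0.0332), at 4.3 ± 0.893 CPM in monosomes (SD, 3 libraries) and 1.43 ± 0.673 CPM in the others (6 libraries). DESeq2 gave SEPP1 no adjusted p.

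Upstream-ORF and stress-response genes had 2 of 30 lower (6.67%), DDIT3 and C19orf48, with a median of -0.13. The share was 2.96% over all tested genes and 5.27% over coding genes of 50 to 100 CPM. The list had a median transcript of 2634 bases, and of coding genes of 2 to 3 kb with at least 20 CPM 3.67% were lower. DDIT3, a stress transcription factor, had 10.2, 9.18 and 28.8 CPM in monosomes, against 36.7, 17 and 21.6 CPM with 2 and 54.3, 64.8 and 114 CPM with 3 ribosomes. Its WT monosome value exceeded the WT 2 ribosome value, and its difference was -1.56 ± 0.39 (adjusted p = 0.0277). ATF4, the main effector of that response, had 1231, 1236 and 1492 CPM in monosomes, against 1549, 961 and 556 CPM with 2 and 3764, 1781 and 1420 CPM with 3 ribosomes and did not pass (-0.09 ± 0.40 (adjusted p = 0.916)). BTG1, an antiproliferative regulator, was the 1 lower gene of 39 immediate-early and short-lived regulators, with 21.6, 37.2 and 36.6 CPM in monosomes, against 50.7, 59.5 and 53.6 CPM with 2 and 96.3, 340 and 208 CPM with 3 ribosomes. Its monosome values lay below the other 6, at -1.76 ± 0.36 (adjusted p = 0.00878).

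Noncoding RNAs did not share 1 direction. Of 20 snoRNA host genes 4 were lower (20%) and 0 higher, with a median of -0.93 and a median transcript of 1036 bases. The share was 2.96% over all tested genes. Over coding genes of 1 to 1.5 kb with at least 20 CPM it was 19%, near that of the list. Of 16 nuclear long noncoding RNAs 0 were called by edgeR or DESeq2. Their median was -0.08, and 1 was higher at an unadjusted p under 0.05. SNHG8 had 125, 91.6 and 217 CPM in monosomes, against 370, 140 and 229 CPM with 2 and 301, 377 and 948 CPM with 3 ribosomes, at -1.37 ± 0.34 (adjusted p = 0.0266). SNHG6 had 23, 16.6 and 15.4 CPM in monosomes, against 91.9, 35.4 and 41.9 CPM with 2 and 49.7, 105 and 118 CPM with 3 ribosomes and no overlap (adjusted p = 0.00631). MALAT1, a nuclear speckle RNA, had 2159, 1122 and 1159 CPM in monosomes, against 2930, 1417 and 993 CPM with 2 and 1811, 2919 and 1986 CPM with 3 ribosomes, at -0.41 ± 0.39 (adjusted p = 0.572), and its paraspeckle neighbour NEAT1 had 831, 507 and 288 CPM in monosomes, against 1107, 648 and 250 CPM with 2 and 803, 656 and 302 CPM with 3 ribosomes, at -0.16 ± 0.25 (adjusted p = 0.75). Both overlapped widely.

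Of 477 RNAs named as antisense 14 were lower (2.94%, against 2.96% of all tested genes) and 0 higher, with a median of 0.25. NUP50-AS1 had 9.29, 10.2 and 30.3 CPM in monosomes, against 70.6, 40.8 and 41.2 CPM with 2 and 59.4, 62.9 and 220 CPM with 3 ribosomes and did not overlap (-2.33 ± 0.35 (adjusted p = 0.00185)), but no use of strand is stated, so its reads and those of NUP50 cannot be told apart. CRNDE, a long noncoding RNA that also holds a short ORF, had 9.12, 9.18 and 8.05 CPM in monosomes, against 41.1, 17 and 16.4 CPM with 2 and 22.5, 62.4 and 71.1 CPM with 3 ribosomes (-2.04 ± 0.42 (adjusted p = 0.00939)). By RefSeq type, 24 of 752 lncRNAs and 11 of 558 pseudogenes were lower, 3.19% and 1.97%. Replication-dependent histone genes, LINC RNAs and microRNA host genes were not analysed here.

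The remaining lists held few calls, while 2.96% of all tested genes were lower. Of 487 ZNF zinc finger genes 8 were lower (1.64%), ZNF271P with the largest difference at -2.16 ± 0.50 (adjusted p = 0.0151), of 287 SLC transporters 5 (1.74%), of 41 DNA replication genes 2 (POLD2 and POLE4), and of 50 extracellular and membrane protein genes and 28 cholesterol and fatty acid synthesis genes 1 each (AGRN and FASN). ER chaperones, other chaperones, long cytoskeletal linkers, glycolysis, mitosis, SR proteins and splicing regulators, nonsense-mediated decay, microRNA pathway, p53 targets, iron metabolism and the 4 cell marker lists had 0 calls by edgeR, with medians of -0.29 to 0.92. Together with the nuclear long noncoding RNAs these 15 lists hold 317 tested genes, of which 5 were higher and 32 lower at an unadjusted p under 0.05, and 1 was higher and 6 lower by DESeq2. NPM1, a nucleolar chaperone, had 284, 475 and 379 CPM in monosomes, against 531, 783 and 352 CPM with 2 and 451, 841 and 534 CPM with 3 ribosomes (-0.57 ± 0.30 (adjusted p = 0.316)). GAPDH had 6569, 3704 and 6581 CPM in monosomes, against 9174, 7806 and 5525 CPM with 2 and 9414, 4629 and 7348 CPM with 3 ribosomes (-0.42 ± 0.33 (adjusted p = 0.488)) and ACTB 2776, 3057 and 3884 CPM in monosomes, against 4020, 3891 and 1900 CPM with 2 and 4180, 2605 and 3256 CPM with 3 ribosomes (-0.02 ± 0.32 (adjusted p = 0.982)). Neither these nor U2AF2, PLEC, AHNAK, GAS5 and CXCL8 passed the test.

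**Figure D5:**
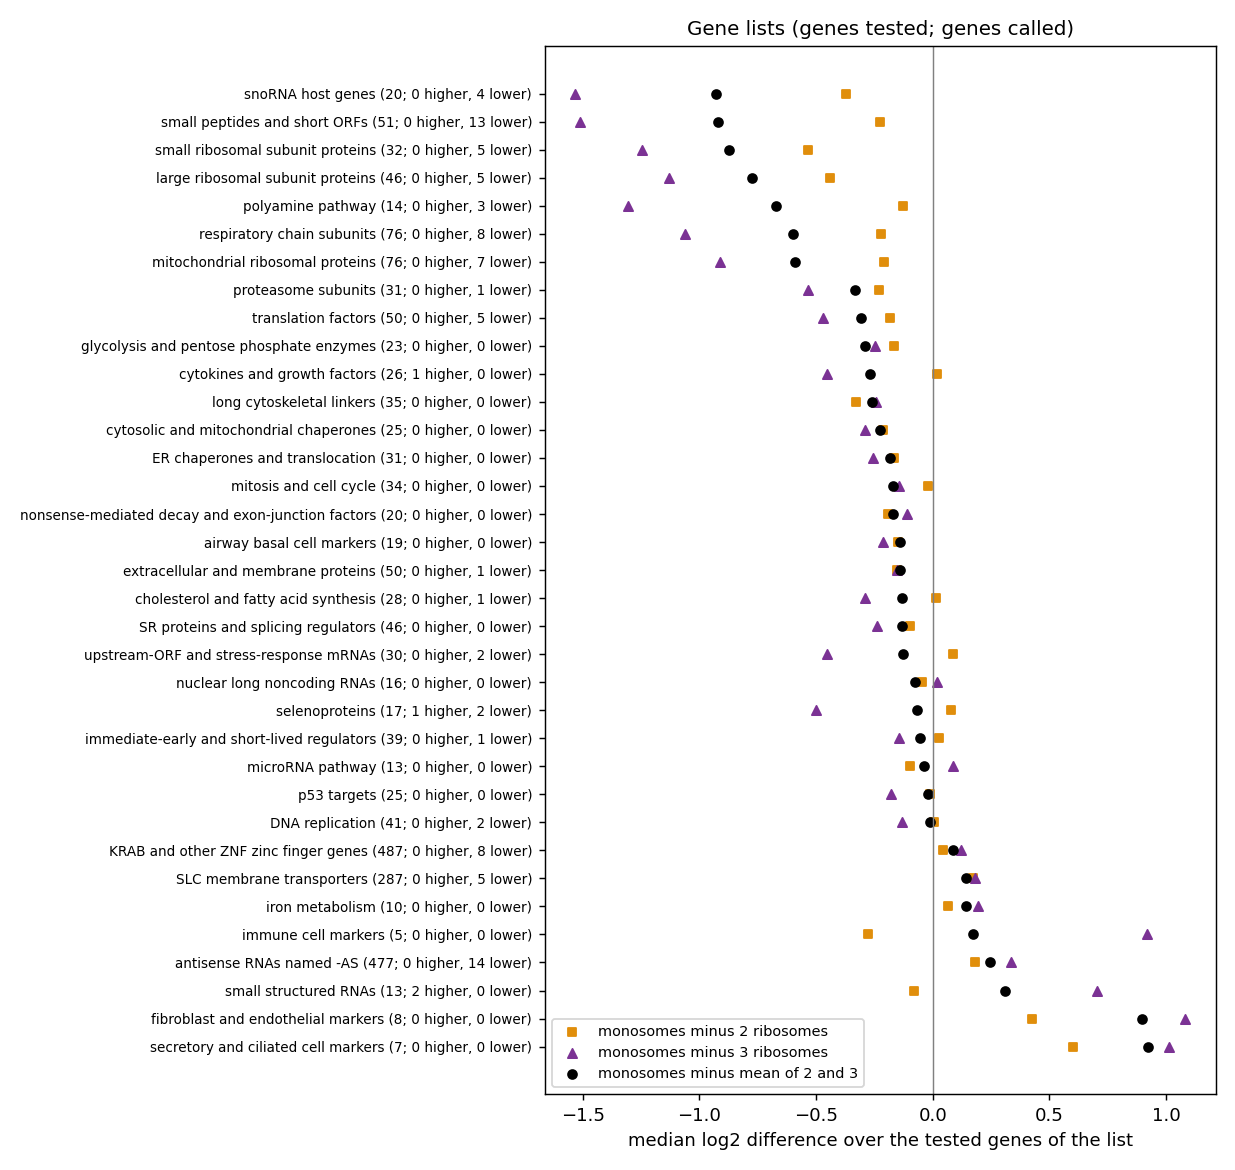
Median log2 difference over the tested genes of each list, for monosomes minus the mean of 2 and 3 ribosomes (circles), minus 2 ribosomes (squares) and minus 3 ribosomes (triangles), with the genes tested and called beside each name. Lists of short mRNAs lie at the top with medians of -0.59 to -0.93, and in each of those the median against 3 ribosomes is further from 0 than that against 2.

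In cytosolic RNA of the same lines, from the immunoprecipitation experiment, the 472 lower genes were more abundant than the rest, with median levels of 39.4, 36.5 and 36.3 CPM in S34F, FS and WT. The 28 higher genes had 20.6, 15.6 and 16.7 CPM, and all tested genes 7.78, 7.09 and 7.23 CPM. More reads give more power to call a gene, and the calls rose with level from 1.06% lower at 2 to 10 CPM to 8.14% over 100 CPM, so no difference between the sets is drawn from this. In U2AF1 precipitate relative to control immunoglobulin the lower genes had medians of 0.16, 0.28 and 0.47 log2, against 0, 0 and 0.15 for all tested genes. Relative to cytosolic RNA they had -0.04, 0.09 and 0.07 log2, against -0.02, 0 and 0 for all tested genes. The 28 higher genes had medians of -0.31, 0 and 0.23 log2 relative to immunoglobulin, and of -0.45, 0 and 0.01 relative to cytosolic RNA. All these come from 1 library each, with no test. No genes of matched level were set beside the lower genes, so no enrichment is drawn from these ratios.

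U2AF1 contact clusters from PAR-CLIP were mapped in the cytoplasm of another human line with tagged U2AF1, with replicates pooled. Among genes of at least 20 CPM, clusters of WT protein lay in the coding sequence of 55 of 225 lower genes under 2 kb (24.4%), against 32.3% of 1128 uncalled genes of that length. Over 6 kb the shares were 42.3% of 52 lower and 46.7% of 1410 uncalled genes. With S34F protein the lower genes had 24% and 40.4%, against 26.7% and 41.2% of uncalled genes. At the start codon, WT protein clusters were found in 3 of 225 short lower genes and 0 of 52 long ones, against 4.34% and 2.34% of uncalled genes. With S34F protein they were found in 7 short (3.11%) and 1 long lower gene (1.92%), against 3.1% and 3.12% of uncalled genes. These shares are descriptions without a test.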

How the data were processed

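Per the labels' protocols, TRIzol was used to extract the RNA of gradient fractions and NEBNext Ultra II for the libraries. The deposited polysome table holds expected counts per gene symbol, since 57.5% of its values were not whole. TopHat is the only tool named in the submitters' processing notes, and the counter, annotation, strand setting and genome build are not given in the sources used here. The immunoprecipitation tables, as deposited by the authors, give expected counts, a transcript length and RPKM values (per kilobase and library size, not used here). The PAR-CLIP cluster lists of the authors give read counts and were used only for the presence of a cluster. Of 21603 entries, 28 names turned into dates and 45 repeated entries were dropped (0.287% of counts).

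Expected counts were rounded and all 24 gradient libraries entered edgeR 4.0.16 (limma 3.58.1, R 4.3.3) with filterByExpr, TMM scaling, fraction and line as terms, and the quasi-likelihood test (common dispersion 0.108). The line block pairs libraries of the same cell line, whose deviations from the fraction means correlated at a median r of 0.434 (0.237 to 0.617 in 9 pairs). An undetected gene may have up to 3 counts, which covers counting error only. Transcript length replaced a planned protein length. Genes were named as the 15 largest rises and falls among called genes with 1 direction in all 6 pairs and at least 20 CPM, up to 4 called members per list by adjusted p, and a set of fixed genes. Of the genes so named, 1 is not reported here. Members and lists were chosen with earlier results of these data known. The fit was checked on simulated data. Alternatives included DESeq2 1.42.0, other scalings and filters, and fits without a line or a library, the single libraries being chosen after seeing the data.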

Additional observations from a re-analysis of the deposited data

Results flagged for a closer look

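For 2 gene lists the medians had opposite signs in 2 lines, a difference between the lines that was not tested. Such signs were not particular to these lists. Against the mean of both fractions, all tested genes had medians of -0.08 in S34F and 0.04 in WT. Coding genes over 100 CPM had -0.38 and 0.05 in those lines. The microRNA pathway list had medians of -0.37 against 2 ribosomes and -0.0454 against 3 ribosomes in the S34F line, and of 0.17 and 0.16 in the WT line. The iron metabolism list had -0.126 and -0.0195 in S34F, and 0.32 and 0.18 in WT. Both lists held 0 genes called by edgeR or DESeq2, with 3 lower and 1 higher at an unadjusted p under 0.05, and each line gave 1 library per fraction.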

How the results depend on the processing

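Counts are given as higher and lower genes in monosomes against the 2 and 3 ribosome fractions, in 3 against 2 ribosomes, and in monosomes against 2 ribosomes. With line left out as a replicate block the pairing was lost and they were 0 and 3, 501 and 3, and 0 and 0. With the 9 libraries only they were 96 and 728, with 235 lower in 3 ribosomes. RLE size factors gave 54 higher, 104 lower in 3 ribosomes and 28 lower than in 2. Upper quartile scaling gave 79, 179 and 27, total counts 119, 147 and 21, and a minimum of 50 counts in 3 libraries 89, 150 and 46, with 1 gene higher than in 2 ribosomes. Without a filter 767 genes were lower in the main comparison, and 3 higher and 40 lower than in 2 ribosomes. DESeq2 gave 105 and 988, 279 lower in 3 ribosomes, and 3 and 128. With 1 fraction alone the main counts were 0 and 8 for 2 ribosomes and 162 and 2049 for 3. Without isolated zeros, or with repeated entries summed, all 6 counts stayed within 1.5 times.

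Fits without 1 line or 1 library gave 0 to 42 higher and 0 to 806 lower genes in the main comparison, 274 to 1528 and 1 to 43 in 3 against 2 ribosomes, and 0 to 1 and 0 to 36 against 2 ribosomes. Upper quartile scaling moved the median of all genes by 0.14 log2. No named gene that was called in the main fit or in an alternative changed sign between the 2. Sign changes of genes called in neither were not counted. Of 93 named genes, of which 80 were called, the call was lost for 79 without the block, 80 without the FS line, 23 without S34F, 37 without WT and 5 to 65 without 1 library. Upper quartile scaling lost 3, total counts 6, the 9 libraries 4, no filter 2, RLE and summed entries 0, and DESeq2 0 of the 92 genes to which it gave an adjusted p, SEPP1 being the other. Depth limits mainly the WT 2 ribosome library, where 3 counts are 1.23 CPM.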
